A study of Homo sapiens with 6 samples.

Results

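Thymidine-arrested and asynchronously cycling RPE-1 cells were compared across all genes, with 6 of the 17 libraries of the series: 3 arrested and 3 cycling, paired by the letter (A, B or C) of the independent experiment they came from. RPE-1 is an established line of human retinal pigment epithelial cells. The arrested cells had been held in 2 mM thymidine for 24 h and were harvested without release. The cycling cells had no thymidine. Neither group received a drug, and the labels name no genotype change in either. The other libraries are cells released from the block for 4 h or 6 h and given DMSO or 2 uM of the ATR inhibitor AZ20. They also entered the filter on low counts, the scaling and the fit. Spread and differences between experiments were thus estimated over all 17 libraries. The DMSO libraries are shown as levels too. Of 60252 gene IDs, 13510 features passed the filter on low counts and were tested.

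Excess thymidine raises the thymidine nucleotide pool, which through feedback on ribonucleotide reductase starves DNA synthesis of deoxycytidine nucleotides, so that cells collect at the G1/S border and in early S phase. Genes for mitosis are transcribed late in the cycle, largely through the MuvB complex with B-MYB and FOXM1, and the promoters of many hold a short element called the CHR. Stalled replication forks signal through ATR and CHK1, and DNA damage signals can stabilise p53, which switches on CDKN1A, MDM2 and other genes. A cycling culture holds cells of all phases, so in these bulk libraries a change in the share of cells in a phase and a change in RNA per cell cannot be told apart.

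Total counts ran from 1758747 to 2357561 over the 6 libraries, so that 1 CPM (the counts-per-million unit, over TMM-scaled totals) was about 2 counts. Both libraries of experiment B stood apart from the other 4 on the first principal component, which held 34.9% of the variance, while the second, with 22.9%, separated the 3 arrested from the 3 cycling libraries. Of 21 markers of retinal pigment epithelium 3 were at 0 in all 6 libraries, namely RPE65, TTR and RAX. RLBP1, DCT, LRAT and RGR stayed under 1 CPM in every library. The 14 without an overlapping gene summed to 64 to 94.9 CPM in arrested and 71.2 to 76.3 CPM in cycling libraries, most of it from SIX3, SERPINF1 and TJP1. KRT5, KRT14, TP63, EPCAM and KRT19, markers of other epithelia, were also at 0 in all 6, and the blood markers without an overlapping gene summed to between 0 and 0.498 CPM. Photoreceptor markers without an overlapping gene summed to 19.8 to 23.7 CPM in arrested and 14.2 to 26.1 CPM in cycling libraries, from CRX and ARR3. The neuron markers without an overlapping gene summed to 11.3 to 17.4 CPM in arrested and 5.32 to 8.69 CPM in cycling libraries, with STMN2 at 0 in all 6, and 1 feature without a symbol, ENSG00000226958, took 2.06% to 8.25% of counts in arrested and 1.39% to 7.04% in cycling libraries. Their part in the results was not tested beyond scaling without that feature, which gave 427 higher and 347 lower features.

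One property of the counts bears on how every row is read, and most directly on genes that overlap a neighbour on the opposite strand. The kit kept strand, yet VIM, the abundant intermediate filament gene, was counted at 1034 ± 143 CPM (SD, n = 6) and the antisense feature VIM-AS1 at 31209 ± 4299 CPM, neither divided by length. The feature AC006064.4, opposite GAPDH, was counted at 39241 ± 5248 CPM and GAPDH itself at 712 ± 118 CPM. Reads of a gene may therefore stand under the name of its opposite-strand partner. For a gene without a partner, such reads may be counted under no name. A low level, a marker without counts or a gene not called therefore need not reflect the RNA of that gene. How far this holds for each gene was not tested. Each overlapped feature is given with its partner, and "opposite MDM2" means a feature whose exons overlap exons of MDM2 on the other strand. Of the tested features, 7086 had such a partner, 6208 had none and 216 could not be placed in the annotation.

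In arrested cells 379 features were higher and 383 lower than in cycling cells, which is 2.81% and 2.83%, or 5.64% together, of those tested (edgeR quasi-likelihood test with experiment letter as a block, Benjamini-Hochberg adjusted p under 0.05). The median log2 change over all tested features was -0.02. The gene lists were chosen with earlier results of these data known. By count, that of p53 targets held the most higher members (12 of 33 tested) and that of G2 and mitosis the most lower ones (17 of 97). The mitochondrially encoded list had a larger share of lower members (5 of 15). Without the experiment letter, 81 features (0.6%) were higher and 58 (0.429%) lower, and all of them were among the features called with it. Leaving out the cycling library of experiment B left 235 higher and 171 lower features, the fewest for any 1 library. In the authors' deposited table, 126 features (1.42%) were higher and 73 (0.82%) lower at an adjusted p under 0.05 of 8901 with a value, and all 199 were called here with the same sign.

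**Figure D1:**
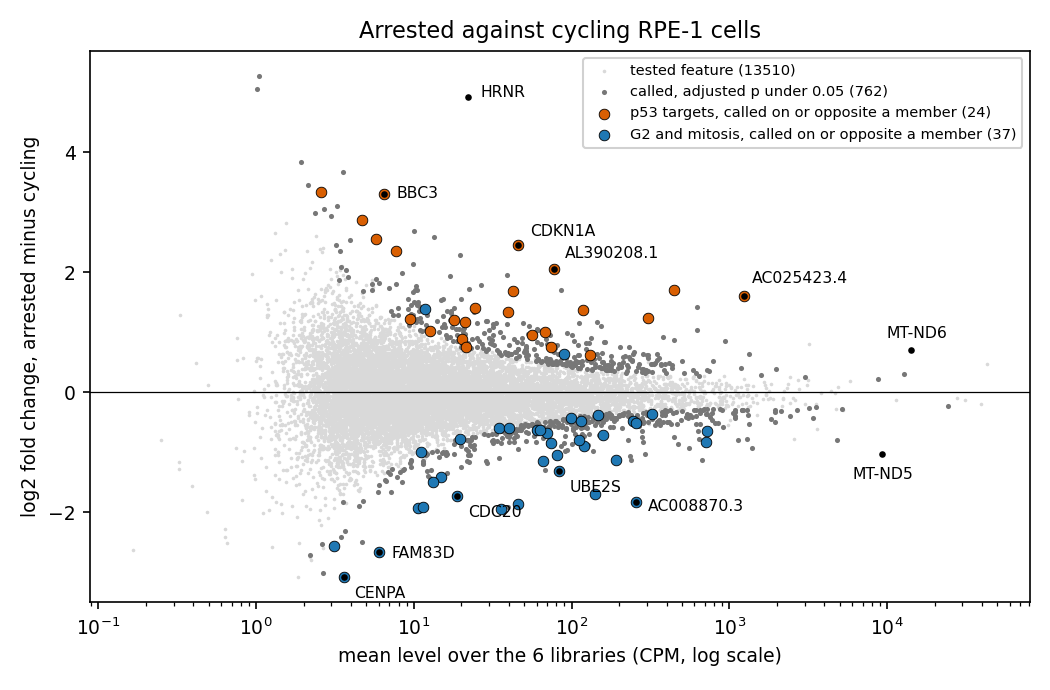
Log2 fold change of every tested feature, arrested minus cycling (vertical axis), against its mean level over the 6 libraries in CPM (horizontal axis, log scale). Grey dots are the 762 called features, orange dots are called p53 targets or features opposite to one, and blue dots are called G2 and mitosis genes or features opposite to one; all 24 orange dots lie above 0, and 35 of the 37 blue dots lie below it.

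Of 40 p53 target genes listed, 33 were tested, and 12 were higher and none lower in arrested cells, where 2.81% of all tested features were higher. Their median log2 change was 0.92. Of 16 tested features opposite to a listed gene, 12 were higher and none lower, with a median of 0.98 (3.95% of all overlapped features were higher). These are not all separate loci. AC025423.4 and CPM both lie opposite MDM2, and XPC-AS1 and LSM3 both lie opposite XPC. MIR3190 and ACTA2 lie opposite BBC3 and FAS, which were themselves called. In 16 of the 33 members and 14 of the 16 opposite features, every arrested library lay above every cycling library, against 7.32% of all tested features. Without the experiment letter 7 of the 12 members and 8 of the 12 opposite features kept the call, and with DESeq2 6 members and 10 opposite features were higher, 18 members and 3 opposite features having no adjusted p there.

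CDKN1A encodes p21, the inhibitor of cyclin-dependent kinases through which p53 stops the cycle. Its level was 51.6, 135 and 48.8 CPM in arrested experiments A, B and C and 16, 15.4 and 8.21 CPM in the cycling ones. Every arrested library was above every cycling one, and arrested B was the highest by a wide margin. The log2 change was 2.46 ± 0.22 (SE; adjusted p = 1.50e-15, and 0.0437 without the experiment letter). Without both libraries of experiment B it was 2.03 (adjusted p = 2.38e-10). CDKN1A overlaps DINOL, an antisense RNA of the same locus.

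MDM2, the ubiquitin ligase that degrades p53 and is itself induced by it, was represented by 3 features. AC025423.4, opposite MDM2, was counted at 1591, 2214 and 1811 CPM in arrested cells and at 591, 527 and 700 CPM in cycling cells. The carboxypeptidase gene named CPM, whose exons also overlap MDM2 on the other strand, stood at 564, 813 and 666 CPM in arrested cells against 196, 192 and 230. The groups were far apart in both. The log2 changes were 1.61 ± 0.11 (SE; adjusted p = 7.72e-15) and 1.71 ± 0.11 (adjusted p = 6.17e-21). MDM2 itself, at 47.5, 79 and 44.7 CPM against 19.5, 27.9 and 19.8 CPM, changed by 1.34 ± 0.20 (adjusted p = 8.63e-08).

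The list also holds the sestrins and the repair gene XPC. AL390208.1, opposite the antioxidant sestrin SESN1, went from 26.6, 25.9 and 37.2 CPM in cycling to 109, 130 and 136 CPM in arrested cells, a log2 change of 2.06 ± 0.22 (SE; adjusted p = 1.17e-08). SESN2, which restrains mTORC1, stood at 8.9, 10.9 and 5.08 CPM against 0.443, 1.99 and 0.966 CPM (log2 change 2.87 ± 0.69, adjusted p = 0.0024). The call for SESN2 ended without the experiment letter (adjusted p = 0.0893) and without experiment A (0.0888). XPC-AS1, opposite the nucleotide excision repair sensor XPC, was counted at 406, 459 and 416 CPM in arrested and at 184, 158 and 197 CPM in cycling cells. The 3 arrested values were close together and all well above the cycling ones, and the log2 change was 1.24 ± 0.11 (adjusted p = 1.87e-19). LSM3, which overlaps the same gene, rose by 0.95 ± 0.18 (adjusted p = 3.43e-05).

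Among the genes of p53-dependent death, BBC3, which encodes the BH3-only protein PUMA, was at 7.12, 16.9 and 11.7 CPM in arrested and at 1.77, 0.996 and 0.483 CPM in cycling cells (log2 change 3.31 ± 0.55, adjusted p = 2.10e-06). BBC3 overlaps the microRNA gene MIR3190, and without cycling A its change was 4.12. FAS, the death receptor, was at 144, 210 and 161 CPM against 78, 44.3 and 76.8 CPM (1.37 ± 0.14, adjusted p = 3.36e-13). FAS overlaps ACTA2, so its row may hold reads of that actin gene, and ACTA2 itself was higher by 0.75 with an adjusted p of 0.0488. Neither BBC3 nor FAS overlapped between groups. BAX, the pore-forming effector, gave 1.02 ± 0.32 (adjusted p = 0.0365), and its call ended without arrested B (adjusted p = 0.55).

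The other called p53 targets were GADD45A, ZMAT3, PHLDA3, FDXR, BTG2 and CCNG1. GADD45A, a growth arrest gene, was at 26.7, 34.3 and 44.7 CPM in arrested and 9.31, 11.5 and 19.8 CPM in cycling cells (log2 change 1.40 ± 0.24, adjusted p = 6.38e-06). ZMAT3, an RNA-binding protein, gave 1.21 ± 0.27 (adjusted p = 0.000728). FDXR, the ferredoxin reductase of mitochondria, gave 2.36 ± 0.46 (adjusted p = 7.68e-05), and its call ended without the letter (0.192) and without experiment B (0.0757). Leaving out 1 library ended the calls of the others: PHLDA3 reached an adjusted p of 0.163 without arrested B, BTG2 0.184 without arrested A, and CCNG1 0.234 without arrested B. BTG2, CCNG1 and BAX also lost it without the experiment letter (0.296, 0.171 and 0.206). Opposite features that rose lay across from FBXO22 (NRG4, 1.01 ± 0.16), PLK3 (DYNLT4, 1.69 ± 0.23, and 1.07 without experiment B), POLH (GTPBP2, 0.76 ± 0.15) and TP53I3 (FAM228B, 0.63 ± 0.13). The calls of GTPBP2 and FAM228B ended without experiment B, with adjusted p of 0.129 and 0.13, and that of FAM228B also without the letter (0.15).

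All 24 called p53 features, members and opposite features together, rose in each of the 3 experiments. They were called from these same pairs, so the shared direction is not separate support. The rise was largest in experiment B for 10 of the 12 members and 10 of the 12 opposite features. On the scale of log2(CPM + 1) the median difference of the 12 members was 1.33 in A, 1.67 in B and 1.14 in C. That of the opposite features was 1.06, 1.73 and 1.09.

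**Figure D2:**
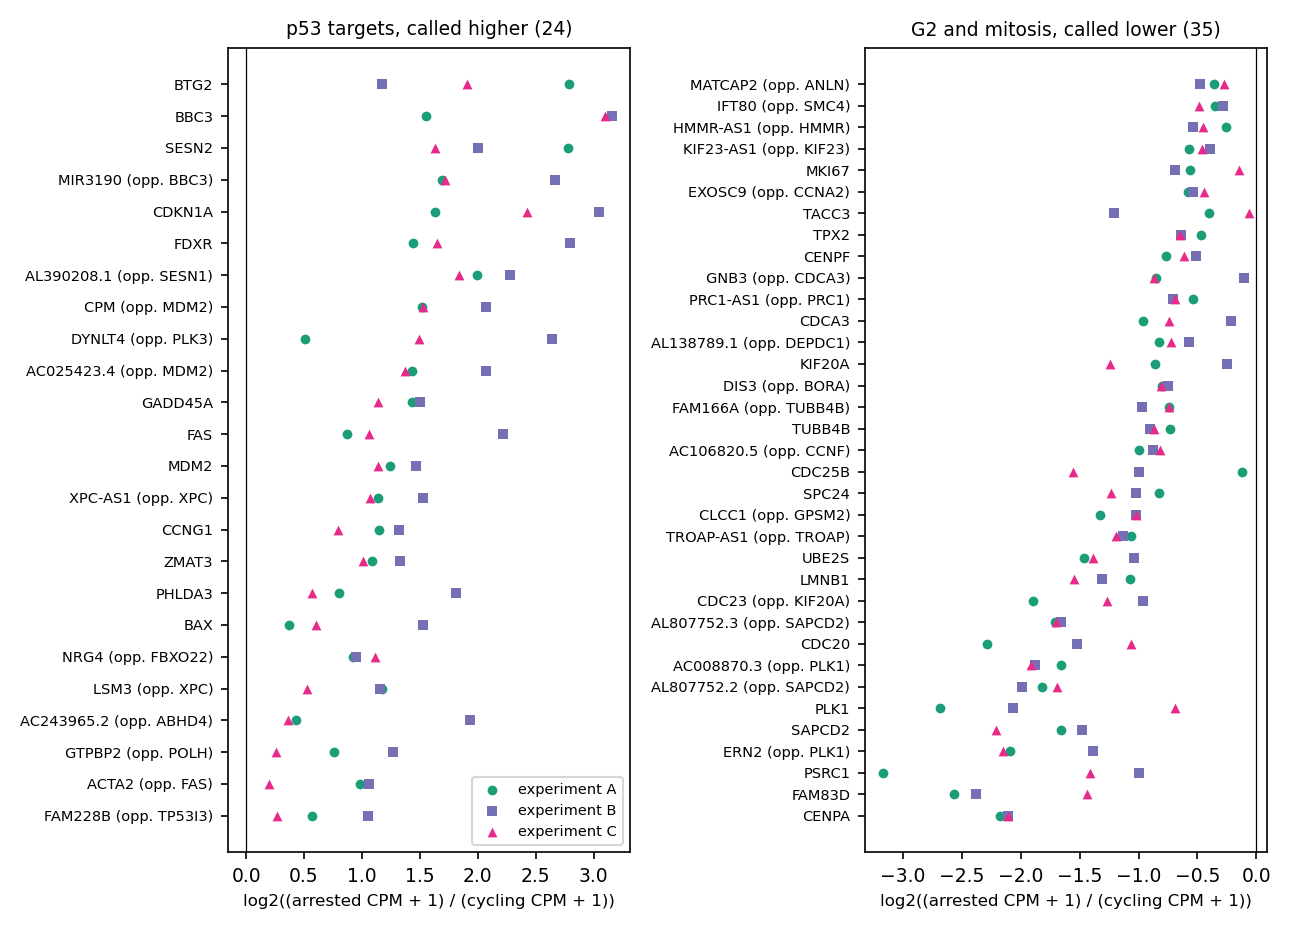
Difference between the arrested and the cycling library of the same experiment, as log2 of the ratio of CPM + 1 (horizontal axis), for each called p53 feature (left) and each G2 and mitosis feature called lower (right); "opp." names the listed gene on the other strand. Each row holds 3 points, 1 for each experiment, and no point lies on the other side of 0. The features were called from these same pairs, so the shared direction is not separate support. Experiment B is the rightmost for 20 of the 24 p53 features.

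Genes of G2 and mitosis moved the other way. Of 104 listed, 97 were tested, and 17 were lower and none higher, where 2.83% of all tested features were lower. The median log2 change of the 97 was -0.36. Of 43 features opposite to a listed gene, 18 were lower and 2 higher, with a median of -0.29 (3.82% of all overlapped features were lower). All 3 arrested libraries lay below all 3 cycling ones for 35 of the 97 members and 20 of the 43 opposite features, against 8.62% of all tested features. Without the experiment letter 10 members and 10 opposite features were lower, and DESeq2 called 12 and 18.

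The promoters of 4 genes whose rows, or opposite rows, fell are shown because their genes fell most on the log2 scale among those that are in the RefSeq table and hold a match to the CHR, the letters TTTGAA on either strand. The 200 bases before the RefSeq transcription start are given (GRCh38.p14, gene strand, 5′ to 3′), with CHR matches in capitals (TTCAAA where the match is on the other strand).
PLK1, chr16:23678689-23678888, + strand: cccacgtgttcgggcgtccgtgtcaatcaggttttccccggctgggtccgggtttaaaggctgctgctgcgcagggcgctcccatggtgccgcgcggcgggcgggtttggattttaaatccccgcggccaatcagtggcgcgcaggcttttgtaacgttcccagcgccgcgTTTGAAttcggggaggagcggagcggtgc
CENPA, chr2:26785856-26786055, + strand: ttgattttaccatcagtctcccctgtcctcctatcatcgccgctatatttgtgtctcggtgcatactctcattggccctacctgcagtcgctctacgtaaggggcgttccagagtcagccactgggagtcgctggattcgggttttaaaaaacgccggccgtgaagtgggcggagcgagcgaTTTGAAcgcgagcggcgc
SAPCD2, chr9:137070558-137070757, - strand: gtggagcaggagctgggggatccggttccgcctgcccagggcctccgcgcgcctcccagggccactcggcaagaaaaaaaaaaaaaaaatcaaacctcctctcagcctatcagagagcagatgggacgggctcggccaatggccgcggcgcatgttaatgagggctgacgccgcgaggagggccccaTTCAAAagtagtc
CDC20, chr1:43358781-43358980, + strand: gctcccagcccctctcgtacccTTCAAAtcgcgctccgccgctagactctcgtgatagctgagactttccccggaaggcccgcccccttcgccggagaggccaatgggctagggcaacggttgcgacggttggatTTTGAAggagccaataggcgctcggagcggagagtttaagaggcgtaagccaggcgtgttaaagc
The first base of the match lies at -29 from the start in PLK1, -18 in CENPA, -13 in SAPCD2, and -65 and -178 in CDC20. In windows of 250 bases before to 50 after the start, TTTGAA stood in 59 of the 88 G2 and mitosis promoters found in the RefSeq table (67%) and in 16 of the 24 whose gene or opposite feature was lower (66.7%), against 15.4% of all 27305 promoters. UBE2S, LMNB1 and PSRC1, which also fell, held no match in this window. In the same windows a half-site of the p53 binding consensus stood in 5 of 34 promoters of listed p53 targets (14.7%). It stood in 2 of the 16 whose gene or opposite feature was higher (12.5%), against 6.54% of all promoters. A match is a description of the letters, not of a bound site.

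PLK1, the polo-like kinase that drives entry into mitosis, was represented by 3 features. AC008870.3, opposite PLK1, was counted at 127, 95.9 and 115 CPM in arrested and at 403, 355 and 436 CPM in cycling cells. The groups were far apart, and the log2 change of -1.83 ± 0.11 (SE) had the smallest adjusted p of the features named here, 4.77e-25. ERN2, an endoplasmic reticulum kinase gene whose exons overlap the same gene, stood at 11.9, 15.9 and 15.7 CPM against 53.6, 43.3 and 73.4 CPM (-1.95 ± 0.21, adjusted p = 3.36e-13). PLK1 itself was at 2.37, 4.47 and 7.11 CPM against 20.8, 21.9 and 12.1 CPM (-1.91 ± 0.34, adjusted p = 7.61e-06), and at -2.58 without experiment C. DIS3, opposite the PLK1 activator BORA, fell by 0.79 (SE 0.13, adjusted p = 1.18e-06).

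Several called features belong to genes that orient and build the spindle. AL807752.3, opposite the spindle orientation gene SAPCD2, was at 64.7, 62.6 and 69.6 CPM in arrested and at 214, 200 and 228 CPM in cycling cells (log2 change -1.70 ± 0.13, adjusted p = 1.60e-23). The values within each group were close, and SAPCD2 itself changed by -1.93 ± 0.36 (adjusted p = 3.11e-05). CLCC1, opposite GPSM2, the cortical anchor of the spindle, was at 116, 118 and 126 CPM against 293, 240 and 257 CPM (-1.12 ± 0.11, adjusted p = 2.16e-15). FAM83D, a spindle protein that recruits casein kinase, was at 1.19, 1.49 and 2.03 CPM against 12, 12 and 7.24 CPM (-2.66 ± 0.47, adjusted p = 7.50e-06). PSRC1, a microtubule-binding protein, gave -2.56 ± 0.62 (adjusted p = 0.0029), with the call lost without arrested A (0.0529) or cycling A (0.0641), and -3.17 without arrested B. TROAP-AS1, opposite TROAP, gave -1.15 ± 0.15 (adjusted p = 1.64e-09), and PRC1-AS1, opposite the midzone bundler PRC1, gave -0.65 ± 0.09 (adjusted p = 6.15e-09, and 0.0617 without the experiment letter). FAM166A, opposite the tubulin gene TUBB4B, was at 555, 445 and 560 CPM against 929, 874 and 935 CPM (-0.82 ± 0.09, adjusted p = 1.41e-13).

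Other called members included CENPA, CDC20, UBE2S and LMNB1. CENPA, the histone H3 variant that marks centromeres, was at 0.593, 0.497 and 1.02 CPM in arrested and at 6.21, 5.48 and 7.73 CPM in cycling cells, that is, 1 or 2 counts per arrested library (log2 change -3.08 ± 0.63, adjusted p = 0.000183). CDC20, the activator of the anaphase-promoting complex, was at 6.53, 9.44 and 10.2 CPM against 35.9, 28.9 and 22.2 CPM (-1.73 ± 0.27, adjusted p = 2.33e-07). UBE2S, the ubiquitin-conjugating enzyme that extends chains for that complex, was at 47.5, 56.2 and 39.6 CPM against 132, 117 and 105 CPM (-1.31 ± 0.14, adjusted p = 7.27e-14). None of these genes overlapped between groups. AC106820.5, opposite cyclin F (CCNF), fell by 0.90 (SE 0.12, adjusted p = 9.86e-10). LMNB1, lamin B1 of the nuclear lamina, gave -1.41 ± 0.30 (adjusted p = 0.000371).

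MKI67 and CENPF, used as markers of proliferating and of G2 cells, fell by under 1 log2 unit. MKI67 was at 189, 215 and 206 CPM in arrested and at 280, 348 and 229 CPM in cycling cells, which do not overlap (log2 change -0.48 ± 0.10, adjusted p = 0.000462). Its call ended without the experiment letter (0.181), without cycling B (0.0689), without experiment A (0.0788) and without experiment B (0.135). CENPF was at 38, 56.7 and 47.8 CPM against 65.6, 81.2 and 73.4 CPM (-0.62 ± 0.15, adjusted p = 0.00339, and 0.095 without the letter). Leaving out arrested A (0.0846) or cycling B (0.0649) ended its call.

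Several mitotic genes did not pass the test. CCNB1, the cyclin of mitotic CDK1, was at 2.97, 2.98 and 1.52 CPM against 5.32, 7.97 and 5.8 CPM (log2 change -1.34 ± 0.49, adjusted p = 0.0898). TOP2A, the topoisomerase of chromosome condensation, was at 54, 64.1 and 50.8 CPM against 42.1, 54.8 and 52.2 CPM (0.18 ± 0.16). CDK1, AURKA, CENPE, KIF14 and FOXM1 were also not called, with log2 changes of 0.80, -0.98, -0.40, -0.91 and -0.21 (FOXM1 overlaps ITFG2). KIF14 passed the test only when experiment B or its arrested library was left out (adjusted p = 0.0439 and 0.016). CCNA2, the cyclin of S phase and G2, gave 0.02 ± 0.12, while EXOSC9, opposite CCNA2, was at 215, 147 and 267 CPM against 322, 214 and 361 CPM (-0.51 ± 0.11, adjusted p = 0.00093, and 0.688 without the letter). The ranges of EXOSC9 overlap between groups, and it was lower in arrested cells within each experiment. The 2 opposite features that rose were PRIMPOL (opposite CENPU, 0.64 ± 0.15) and ARHGAP11A-DT (opposite ARHGAP11A, 1.38 ± 0.34). Both lost the call without arrested C (adjusted p = 0.0963 and 0.0692), PRIMPOL also without cycling A (0.0545) and ARHGAP11A-DT without cycling C (0.0762).

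**Figure D3:**
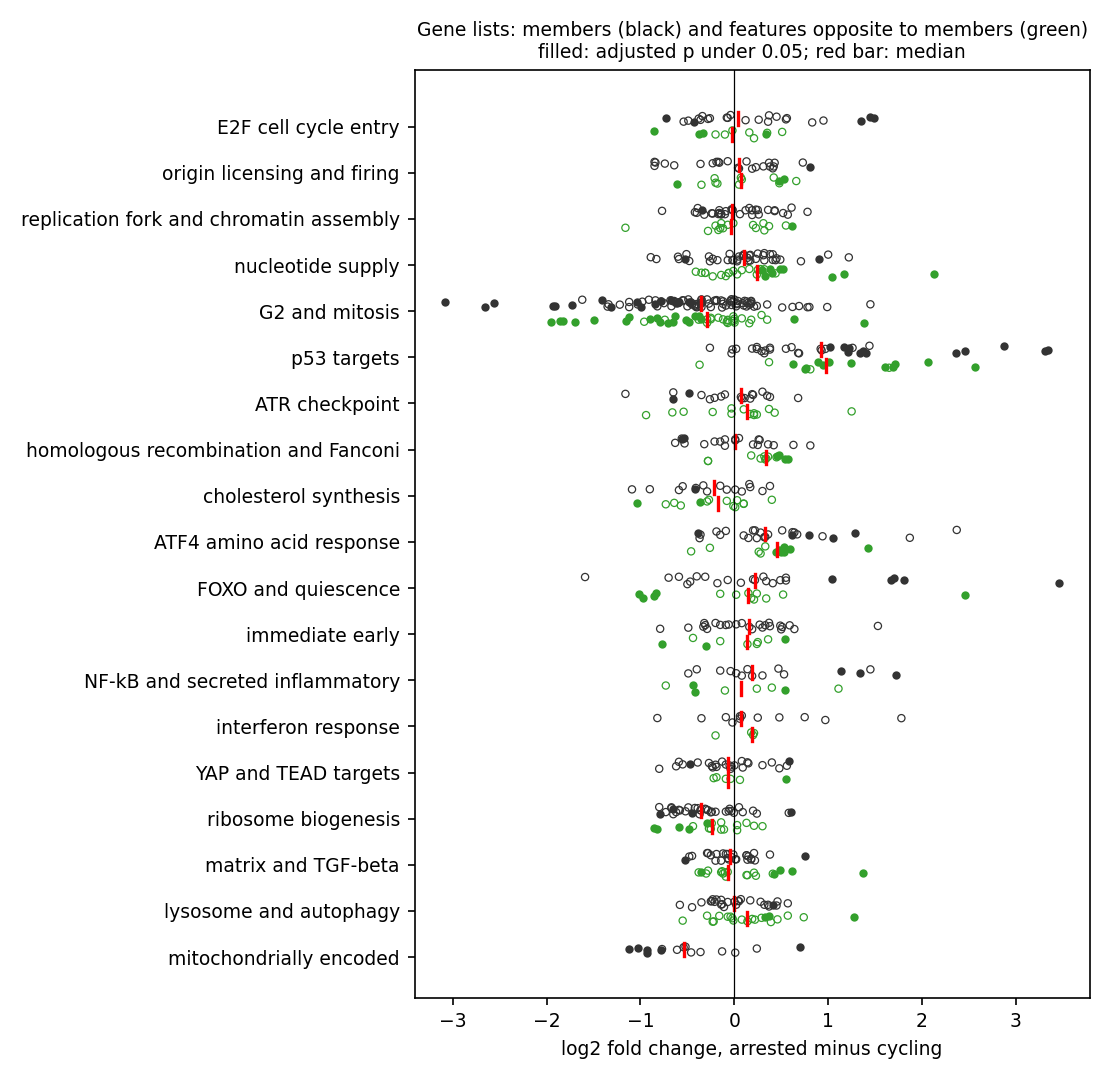
Log2 fold change, arrested minus cycling (horizontal axis), of the tested members of each gene list (black) and of the tested features opposite to a member (green); filled points are called and red bars are medians. The p53 list has a median of 0.92 and the G2 and mitosis list one of -0.36; replication histones, with 2 tested members, are not drawn.

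Genes of S phase entry and DNA replication make up 3 of the lists. Of 24 tested genes of E2F-driven cell cycle entry, 3 were higher and 2 lower, with a median log2 change of 0.04. Of 24 tested genes of origin licensing and firing 1 was higher, and of 34 genes of the replication fork and chromatin assembly 1 was lower, with medians of 0.04 and -0.03. Over all tested features 2.81% were higher and 2.83% lower. Of the features opposite to these lists, 1 was higher and 3 lower of 11 for E2F entry, 2 higher and 1 lower of 13 for licensing and firing, and 1 higher of 16 for the fork, where 3.95% of overlapped features were higher and 3.82% lower. None of these opposite features was called without the letter. CCNE2, cyclin E2, which overlaps INTS8, was at 74.2, 42.3 and 76.7 CPM in arrested and at 98, 82.7 and 62.8 CPM in cycling cells (-0.34 ± 0.17), and passed the test only without experiment C (-0.66, adjusted p = 0.029). E2F1, CDC6, MCM2, MCM5, MCM6, TK1 and SLBP did not pass the test, with log2 changes of -0.26, 0.31, -0.16, -0.84, -0.64, 0.10 and -0.36 (MCM2 overlaps TPRA1). PCNA, the sliding clamp and also a p53 target, was at 13.1, 18.9 and 9.65 CPM against 6.21, 12.9 and 5.31 CPM (0.78 ± 0.36, not called). CCNE1, cyclin E1, and the p53 target GDF15 did not pass the filter on low counts.

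The 5 calls of the E2F list were weakly held. The 3 higher genes were RBBP8, the end-resection factor CtIP (1.49 ± 0.38), CDK2, which overlaps PMEL (1.45 ± 0.37), and the retinoblastoma gene RB1 (1.35 ± 0.35). All of them lost the call without arrested C, with adjusted p of 0.21, 0.0664 and 0.449. RBBP8 also lost it without cycling B (0.0527) and RB1 without cycling C (0.0756) and without the experiment letter (0.0957). The lower ones were UHRF1, which directs maintenance methylation (-0.73 ± 0.19), and cyclin D1 (CCND1, which overlaps LTO1, -0.43 ± 0.12), both of which lost it without cycling A (0.14 and 0.297). UHRF1 also lost it without arrested B (0.0852), CCND1 without arrested C (0.18), and both without the letter (0.175 and 0.402). LTO1, opposite CCND1, was at 1854, 1402 and 1946 CPM against 2153, 1863 and 2508 CPM (-0.33 ± 0.08, adjusted p = 0.00311), with overlapping groups. The call of LTO1 held with any library left out (highest adjusted p 0.0377). It ended without experiment B (0.145) and without the letter (0.597). The licensing factor CDT1 was at 12.5, 36.3 and 34.5 CPM against 16.4, 17.9 and 12.1 CPM (0.81 ± 0.26, adjusted p = 0.0477), with overlapping groups. Its call ended without arrested B (0.1), cycling B (0.323), arrested C (0.574) or cycling C (0.208), and without the letter (0.463).

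Nucleotide supply is the process thymidine acts on. Of 41 tested members 1 was higher and 1 lower (2.81% and 2.83% of all tested features), and of 27 tested opposite features 9 were higher and none lower, with a median of 0.24 (3.95% of overlapped features were higher). Without the letter 2 of these 9 remained called. AC006030.1, opposite the mitochondrial folate enzyme MTHFD2, was at 796, 734 and 969 CPM in arrested and at 444, 340 and 440 CPM in cycling cells. It changed by 1.04 ± 0.09 (adjusted p = 3.27e-18) with no overlap, and SLC4A5, opposite the same gene, changed by 1.17 ± 0.12 (adjusted p = 1.90e-14). NDUFA4L2, opposite the serine hydroxymethyltransferase SHMT2, was at 12.5, 23.4 and 12.7 CPM against 3.1, 5.48 and 2.41 CPM (2.13 ± 0.40, adjusted p = 4.01e-05, and 0.108 without the letter). RRM1-AS1, opposite the large subunit of ribonucleotide reductase, was at 397, 350 and 435 CPM against 291, 271 and 280 CPM (0.49 ± 0.10, adjusted p = 0.000306, and 0.34 without the letter). RRM2, the small subunit, and TYMS, thymidylate synthase, were not called, at 0.44 ± 0.21 and 0.38 ± 0.16. ENOSF1, opposite TYMS, was at 1773, 1508 and 1943 CPM against 1487, 1344 and 1443 CPM, with no overlap (0.29 ± 0.09, adjusted p = 0.0229). Its call ended without cycling A (0.188), arrested C (0.445), experiment A (0.109), experiment C (0.257) or the letter (0.645). The nucleoside transporter SLC29A2, which overlaps B4GAT1-DT and was the member that rose (0.90 ± 0.23, adjusted p = 0.00421), lost the call without arrested A (0.0531), cycling B (0.0578) or the letter (0.0617). IMPDH2, which makes guanine nucleotides, overlaps AC137630.3 and fell (-0.52 ± 0.16), lost it without arrested B (0.255), cycling B (0.252), arrested C (0.094), cycling C (0.0641) or the letter (0.374). AC137630.3, opposite IMPDH2, was higher, at 361, 264 and 377 CPM against 305, 201 and 267 CPM (0.38 ± 0.10, adjusted p = 0.011). Its groups overlapped, and its call ended without arrested C (0.157), experiment B (0.0613) or the letter (0.646).

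Repair and checkpoint genes were read in 2 lists. Of 21 tested genes of homologous recombination and the Fanconi pathway 2 were lower (2.83% of all tested features), and of 13 opposite features 4 were higher (3.95% of overlapped features). Without the letter none of them was called. The 4 were LRRC41 (opposite RAD54L), POLG (opposite FANCI), ZNF276 (opposite FANCA) and FANCD2OS (opposite FANCD2), with log2 changes of 0.54, 0.57, 0.48 and 0.45. POLG was at 454, 341 and 491 CPM against 298, 265 and 298 CPM (adjusted p = 7.68e-06), with no overlap. Without the letter the adjusted p of these 4 ran from 0.0977 for LRRC41 to 0.342 for FANCD2OS, whose call also ended for 2 of the 6 libraries left out (0.175 without arrested C). The lower members were the nuclease subunit EME1, which overlaps LRRC59 (-0.54 ± 0.10, adjusted p = 0.207 without the letter), and the recombination translocase RAD54L. The row of RAD54L overlaps LRRC41, so its fall and the rise of LRRC41 cannot be assigned to either gene. It changed by -0.56 ± 0.17 (adjusted p = 0.219 without the letter). Its call was lost without arrested A (0.163), cycling A (0.288), arrested B (0.0912) or arrested C (0.0567). Of 14 features opposite to ATR checkpoint genes none was called by edgeR or DESeq2 (unadjusted p under 0.05 for 1 higher and 2 lower). Of 19 tested ATR checkpoint genes 2 were lower, the clamp subunit RAD1 (opposite BRIX1) and the CDK1 kinase PKMYT1 (opposite PAQR4), at -0.48 ± 0.14 and -0.65 ± 0.16. Both lost the call without cycling B (0.171 and 0.0933) and without the letter (0.437 and 0.475), RAD1 also without arrested A (0.258), and PKMYT1 without arrested B (0.061) or cycling C (0.0694). CHEK1, the effector kinase of ATR, was at 2.97, 4.47 and 4.06 CPM against 8.42, 8.47 and 9.18 CPM and was not called (-1.16 ± 0.47), although the groups did not overlap. WEE1, which restrains CDK1, was not called at -0.65 ± 0.32.

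ATF4 drives genes of amino acid synthesis and transport. Of 26 tested members of this response 4 were higher and 1 lower, with a median of 0.32 (2.81% of all tested features were higher). Of 12 opposite features 7 were higher and none lower, with a median of 0.46 (3.95% of overlapped features were higher). NUPR1, a stress-induced chromatin protein, was at 44.5, 69.6 and 51.8 CPM against 29.3, 17.4 and 21.7 CPM (1.29 ± 0.20, adjusted p = 4.05e-07), with no overlap. SARS1, the serine tRNA synthetase, gave 1.05 ± 0.24 (adjusted p = 0.00149, and 0.148 without the letter), and DDIT3, the transcription factor CHOP, which overlaps MARS1, gave 0.62 ± 0.13 (adjusted p = 0.000407, and 0.103 without the letter). DDIT4-AS1, opposite the mTORC1 inhibitor DDIT4, was at 831, 726 and 1152 CPM against 463, 216 and 361 CPM (1.42 ± 0.24, adjusted p = 0.00747). SLC7A11-AS1, opposite the cystine transporter SLC7A11, gave 0.59 ± 0.11 (adjusted p = 8.11e-05, and 0.122 without the letter). Without the letter 1 member and 1 opposite feature remained called.

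Of 23 tested genes of FOXO targets and quiescence, 5 were higher and none lower, where 2.81% of all tested features were higher. Without the letter 3 of the 5 kept the call, and DESeq2 called none of the list, with no adjusted p for 10. The 5 were TXNIP, FBXO32, CCNG2, TOB1 (which overlaps TOB1-AS1) and PIK3IP1 (which overlaps PIK3IP1-DT). TOB1 and PIK3IP1 were the ones that lost the call without the letter (adjusted p = 0.0696 and 0.322), and leaving out 1 library ended it for 3 of the 6 libraries in TOB1 and for all 6 in PIK3IP1. TXNIP, the thioredoxin-binding regulator of glucose uptake, was at 9.49, 14.4 and 12.2 CPM against 3.55, 2.99 and 3.86 CPM (1.81 ± 0.42, adjusted p = 0.00148, and 0.08 without experiment B). FBXO32, the atrogin ubiquitin ligase, gave 1.67 ± 0.38 (adjusted p = 0.00129). CCNG2, a cyclin of non-dividing cells, was at 2.37, 4.47 and 5.08 CPM against 0.443, 0.498 and 0 CPM (3.46 ± 0.86, adjusted p = 0.00421, and 0.124 without experiment C). CDKN1B, the inhibitor p27, was not called (-0.50 ± 0.32). Of 13 opposite features 1 was higher and 4 lower, where 3.82% of all overlapped features were lower. All 4 that fell lay across from SUN2, a protein of the inner nuclear membrane. The most abundant of them, GTPBP1, was at 205, 168 and 207 CPM against 403, 345 and 425 CPM (-1.02 ± 0.10, adjusted p = 1.97e-15), with no overlap.

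Of 35 tested ribosome biogenesis genes 1 was higher (TSR1, opposite SRR, 0.60 ± 0.11, with an adjusted p of 0.171 without the letter) and 3 lower, with a median of -0.36 (2.83% of all tested features were lower). Of 17 opposite features 5 were lower, with a median of -0.24 (3.82% of overlapped features), and 1 of the 5 without the letter. ARL10, opposite NOP16, was at 81.3, 49.7 and 84.3 CPM against 145, 113 and 128 CPM (-0.86 ± 0.14, adjusted p = 8.85e-07). AC017083.3, opposite the small-subunit factor PNO1, gave -0.82 ± 0.15 (adjusted p = 3.06e-05, and 0.0636 without the letter). The lower members were the nucleolar proteins NCL, NOLC1 and DDX21, at -0.45, -0.79 and -0.65, and all 3 lost the call without cycling B (adjusted p = 0.549, 0.213 and 0.206) and without the letter (0.477, 0.254 and 0.171). NCL also lost it without arrested B (0.143), NOLC1 and DDX21 without arrested A (0.151 and 0.15) or cycling A (0.107 and 0.0842), and DDX21 without arrested C (0.099).

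Mitochondrially encoded RNAs were among the most abundant that moved. Of the 15 tested, 5 were lower and 1 higher, with a median of -0.54, where 2.83% and 2.81% of all tested features were. MT-ND5, a subunit of respiratory complex I, was at 7728, 4116 and 6739 CPM in arrested and at 14349, 9792 and 13016 CPM in cycling cells (-1.03 ± 0.07, adjusted p = 2.99e-24, and 0.123 without the letter). MT-ND6, another complex I subunit and the protein gene read from the other mitochondrial strand, was at 19196, 15007 and 18791 CPM against 12289, 10655 and 9744 CPM (0.70 ± 0.07, adjusted p = 2.59e-14, and 0.033 without the letter). The groups did not overlap in either, and they moved in opposite directions. MT-ND3, MT-CO3, MT-ND2 and MT-ND1, further subunits of the respiratory complexes, also fell, with log2 changes of -1.12, -0.93, -0.78 and -0.93. Only MT-ND1 of these 4 kept its call without the letter (adjusted p = 0.0345). All features of the mitochondrial genome together took 3.16% to 4.29% of counts in arrested and 3.78% to 4.49% in cycling libraries. Which mitochondrial strand each row counts was not determined, given the counts on opposite strands described above.

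Some of the largest changes lay outside the lists. HRNR, the epidermal protein hornerin, was at 21.4, 75.1 and 31 CPM in arrested and at 0, 0 and 3.86 CPM in cycling cells (log2 change 4.91 ± 0.71, adjusted p = 0.000779). With 2 cycling libraries at 0 its size rested on cycling C: it was 9.52 without that library and 4.01 without cycling B, and called in both. FLG, filaggrin, its neighbour in function, was at 8.31, 47.2 and 14.2 CPM against 2.22, 3.98 and 4.35 CPM (2.59 ± 0.35, adjusted p = 2.13e-09). FLG overlaps FLG-AS1, gave 1.78 without experiment B and lost the call without the letter (adjusted p = 0.168). The keratinocyte keratins KRT5 and KRT14 were at 0 in the same libraries. STAC3, an adaptor of muscle calcium channels, was at 11.3, 20.9 and 19.8 CPM against 1.77, 4.48 and 1.93 CPM (2.68 ± 0.45, adjusted p = 4.46e-06, and 0.104 without the letter). A4GNT, a mucin glycosyltransferase, gave 3.11 ± 0.72 (adjusted p = 0.00146, and 0.074 without experiment A). AC005339.1, opposite TNFAIP8L1, was at 13.6, 19.9 and 15.7 CPM against 63.4, 53.3 and 69.5 CPM (-1.91 ± 0.20, adjusted p = 1.90e-14).

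Of 15 tested genes of NF-kB and secreted inflammatory factors 3 were higher and none lower (2.81% of all tested features were higher). Of 8 opposite features 1 was higher and 2 lower, where 3.95% of overlapped features were higher and 3.82% lower. IL1A, interleukin 1 alpha, was at 11.9, 82.5 and 9.15 CPM in arrested and at 3.55, 21.9 and 4.35 CPM in cycling cells. Experiment B was highest in both groups and the groups overlapped, but each arrested library was above its own pair (1.72 ± 0.26, adjusted p = 1.21e-07). Without the letter the adjusted p was 0.78, and without experiment B 0.0912. IL1B gave 1.34 ± 0.25 (adjusted p = 4.07e-05), with 0.833 without the letter and 0.0787 without cycling B. LIF, a cytokine of the interleukin 6 family, was at 48.6, 46.2 and 37.1 CPM against 20.4, 20.4 and 18.8 CPM, with no overlap (1.14 ± 0.23, adjusted p = 0.000151). LIF overlaps its antisense RNAs LIF-AS1 and LIF-AS2.

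The remaining lists are given by their counts, to be read against 2.81% higher and 2.83% lower of all tested features and 3.95% and 3.82% of overlapped ones. Among 25 immediate early genes none was called by edgeR or DESeq2 (unadjusted p under 0.05 for 2 higher and 2 lower genes), and of 9 opposite features 1 was higher and 2 lower. Among 12 interferon response genes none was called by either (unadjusted p under 0.05 for 4 higher genes), and none of 4 opposite features by either or at an unadjusted p under 0.05. Of 28 matrix and TGF-beta genes 1 was higher and 1 lower, and of 19 opposite features 4 were higher and 1 lower. The higher ones included FAS and ACTA2-AS1, both opposite ACTA2. Of 27 lysosome and autophagy genes 1 was higher, and of 21 opposite features 3 were higher. Of 16 cholesterol synthesis genes 1 was lower, and of 14 opposite features 2 were lower. Of 26 YAP and TEAD targets 1 was higher and 1 lower, and of 6 opposite features 1 was higher. Replication histones, whose main transcripts lack poly(A) tails, left 2 of 51 listed genes to test and gave no call by edgeR, DESeq2 or at an unadjusted p under 0.05.

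The levels in cells released from the block show where the same features stood later. They are given without a test, since the arrested libraries would enter that comparison too. AC025423.4, opposite MDM2, was at 1026, 1424 and 995 CPM at 4 h of release and at 1071, 1030 and 911 CPM at 6 h, between the arrested and the cycling values at both times. XPC-AS1 was at 195, 230 and 196 CPM at 4 h and at 190, 196 and 180 CPM at 6 h, close to the cycling values. CDKN1A was at 28, 74.3 and 48.7 CPM at 4 h and at 17.7, 47.2 and 35.6 CPM at 6 h. AC008870.3, opposite PLK1, was at 277, 185 and 175 CPM at 4 h and at 719, 471 and 475 CPM at 6 h. All its 4 h values lay between the arrested and cycling ones, and all its 6 h values lay above the cycling ones. UBE2S was at 94.8, 84.2 and 78.8 CPM at 4 h and at 107, 122 and 114 CPM at 6 h, and MT-ND6 was at 12030, 9705 and 10711 CPM at 4 h. DDIT4-AS1 was at 185, 126 and 168 CPM at 4 h and at 113, 98.9 and 94.2 CPM at 6 h, below every cycling library at both times, although it was highest in arrested cells.

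**Figure D4:**
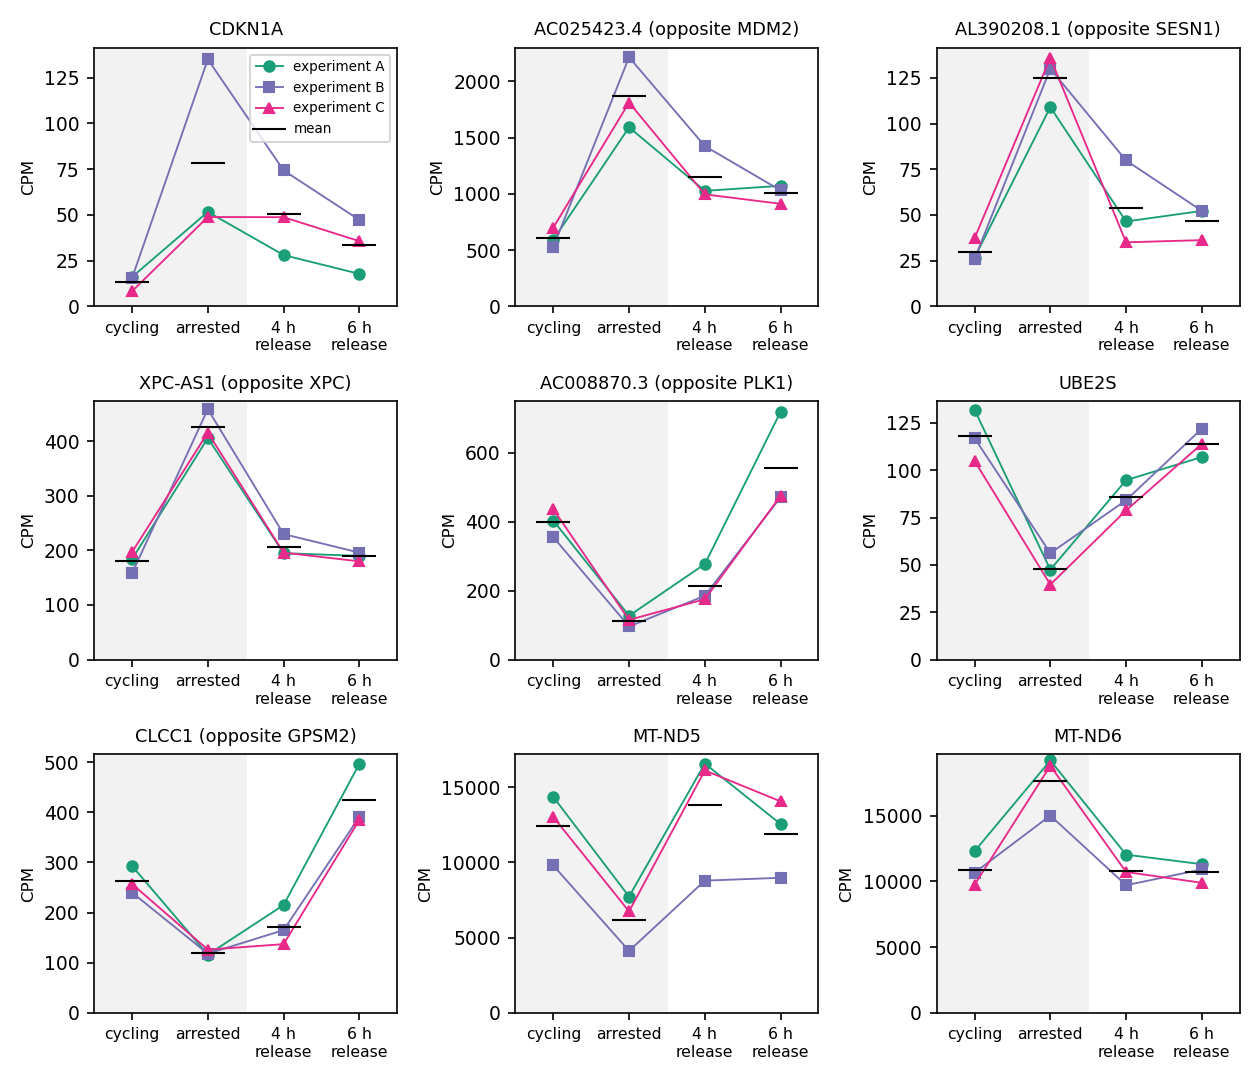
Level in CPM (vertical axis, from 0) of 9 features in cycling cells, arrested cells and cells released for 4 h or 6 h with DMSO; each line is 1 experiment and each bar is the mean of 3 libraries. The grey band marks the groups compared: the first 4 features and MT-ND6 are higher in every arrested than in every cycling library, and the other 4 are lower.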

How the data were processed

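Poly(A) RNA libraries were made with a stranded kit, per the labels' protocols. Per the submitters' processing notes TopHat, HTSeq, DESeq2 and GRCh37 were used; which release of each and which strand option was not given in the sources used here. The authors deposited raw counts per gene for 17 libraries, and, per the file headers, log2 fold changes and adjusted p-values of their own comparisons. Column names gave group and experiment letter. The columns named as not released were taken as the arrested cells. The 17 columns hold none for 6 h with inhibitor in experiment C.

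Counts were filtered (filterByExpr, minimum count 10, minimum total 15), scaled by TMM and fitted with edgeR 4.0.16 (robust glmQLFit, glmQLFTest, R 4.3.3) over all 17 libraries, with a mean per group and the letter as block. Tests were two-sided with Benjamini-Hochberg adjustment over all features. The letters pair the libraries: the design text names 3 independent experiments, and deviations from group means correlated at 0.138, 0.403 and 0.17 within letters A, B and C. Across letters A and C they correlated at 0.114 and 0.149, so these are not separated from each other by this check, and B with another letter gave -0.272 to -0.215. Whether cultures within an experiment were independent is not stated. CPM used TMM-scaled totals. Opposite-strand overlaps came from GENCODE 29 (GRCh38, names only) and promoters from RefSeq GRCh38.p14. The script was tested on simulated data.

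The members and gene lists were chosen with earlier results of these data known. Named features were the 10 with the largest change each way without an opposite-strand overlap and the 6 with one (mean of at least 5 CPM, same direction in 3 pairs), up to 4 of smallest p per list and direction, a panel of cell cycle genes, and features opposite to a listed gene. BAX, PIK3IP1, GADD45A, ZMAT3, PHLDA3, BTG2, CCNG1, LMNB1 and MT-ND1 were named after their values were seen, and named features whose calls were lost most often are not all printed. Alternatives were no block, only the 6 libraries, DESeq2 size factors, DESeq2 1.42.0, no filter, removal of 1 abundant feature, and leaving out each library or experiment.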

Additional observations from a re-analysis of the deposited data

How the results depend on the processing

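Without the replicate block, which uses the pairing by experiment, 81 features were higher and 58 lower, 7 p53 targets were higher, and 10 G2 and mitosis genes and 10 features opposite to them were lower. With only the 6 arrested and cycling libraries, 439 features were higher and 322 lower. Of the features called in the main fit, 371 higher and 310 lower ones were also called there. The DESeq2 Wald test called 6 p53 targets higher. Leaving out 1 library gave 235 to 351 higher and 171 to 345 lower features, and leaving out 1 experiment 182 to 272 and 143 to 282. Over both, p53 targets higher ran from 7 to 11, features opposite them from 7 to 12, G2 and mitosis genes lower from 10 to 16 and features opposite them from 12 to 18. The lowest p53 counts came without experiment B. Of 183 named features 135 entered a tally of single features. Features named only as opposite to 1 list other than p53 targets or G2 and mitosis were left out of it. DESeq2 results without an adjusted p were also left out. Of 135 named features under 15 alternatives, 1569 results kept direction and call, 402 lost the call, 3 gained it and 13 changed sign. None of those 13 had been called, and leaving out libraries or experiments moved them as follows. CDC6 ran from -0.19 (without cycling A or experiment A) to 0.89, and MCM2 from -0.51 to 0.07 (0.04 without cycling B, 0.01 without experiment A, 0.07 without B). MCM6 ran from -1.23 to 0.08 (without cycling B) and CENPE from -0.72 to 0.02 (without arrested A). CCNA2 ran from -0.08 (without cycling A) to 0.17, with -0.00045 without arrested A, -0.04 without arrested C, -0.07 without experiment A and -0.02 without C. CDKN1B ran from -0.77 to 0.06 (without experiment C). The cause of these changes was not tested. At about 2 counts per CPM, features of a few CPM rest on few counts. This limits the calls for CENPA, SESN2, CCNG2, A4GNT and BBC3, and the tests of CCNB1 and CDC6, which were not called. 1 feature, ENSG00000226958, took 1.39% to 8.25% of counts, most in experiment B, and scaling without it gave 427 higher and 347 lower.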
